A study of Mus musculus with 12 samples.

Results

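Paneth cells are secretory cells at the base of the small-intestinal crypts that make large amounts of antimicrobial protein. Here, 10 genes for the synthesis of proline, serine, glycine and asparagine and for its control were followed in sorted mouse crypt cells: Pycr1, Aldh18a1, Phgdh, Psat1, Psph, Shmt2, Mthfd2, Asns, Atf4 and Trib3. They are 10 of the 55414 genes in the count table, were found there by their mouse symbols, and all passed the filter on low counts that left 13057 genes for testing. The genes share a known pathway, but they were chosen by someone with results of these same 12 libraries in view, including differences between the groups. The tests below come from 1 fit over all genes tested and describe the genes. They are not independent evidence that the set was well chosen.

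RNA was sequenced from 4 groups of 3 libraries, all from C57BL/6J mice, young adults per the study's methods: Paneth and non-Paneth crypt cells of wild-type mice (WT) and of mice labelled GRvillinKO (GRKO). In GRKO mice the glucocorticoid receptor gene Nr3c1 is deleted in cells that express villin, a gene of the whole intestinal epithelium, and the sources used here do not give further details of the alleles. The gate for Paneth cells took events positive for CD24 and cKIT, of medium to high side scatter and without blood or endothelial surface markers. The sources used here do not give the non-Paneth gate. The sample titles carry the genotypes used here, since a separate genotype field of the labels goes against them for 6 libraries. The labels do not say whether all libraries of a group came from separate mice, so p-values measure the spread between these libraries. Xist RNA, given below, sets replicate 2 of both WT fractions apart from the other WT libraries.

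The libraries held 11126297 to 15910292 counts. Nr3c1, the targeted gene, lay between 40.8 and 131 CPM (counts relative to library size) in the 6 WT libraries and between 5.82 and 24.5 CPM in the 6 GRKO libraries, lower in GRKO in both fractions. All levels here are CPM after TMM scaling, which corrects for the few Paneth transcripts that fill much of a library. The 5 Paneth markers, Lyz1, Defa24, Mmp7, Itln1 and Ang4, summed to between 355000 and 552000 CPM in Paneth libraries and between 324 and 1040 CPM in non-Paneth libraries. The 4 tuft cell markers Dclk1, Trpm5, Avil and Pou2f3 were also higher in the Paneth fraction, at 159 to 1070 CPM in sum against 3.12 to 246 CPM. The 6 blood, endothelial and stromal markers summed to at most 28.9 CPM in any library, with Hba-a1 at 0 in all of them. In bulk samples like these, fewer cells of a type and less RNA per cell cannot be told apart.

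Proline is made from glutamate in mitochondria. The enzyme encoded by Aldh18a1 makes pyrroline-5-carboxylate, which the enzyme of Pycr1 reduces to proline. Serine is made from a glycolytic intermediate by the enzymes of Phgdh, Psat1 and Psph in turn, and the mitochondrial enzymes of Shmt2 and Mthfd2 take its carbon into glycine and the folate pool. Asns makes asparagine from aspartate and glutamine. ATF4, a transcription factor whose translation rises when eIF2 alpha is phosphorylated, activates many of these genes when amino acids are short, and Trib3 encodes a pseudokinase that ATF4 induces and that acts back on it.

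In WT mice, most of the synthesis genes were higher in Paneth than in non-Paneth cells, led by Pycr1, while the first enzyme of the proline route, Aldh18a1, was not. Of the 10 genes, 8 were called higher (edgeR quasi-likelihood test, 5% false discovery rate) and 0 lower, where 24% of all genes tested were called higher and 26.7% lower. At an unadjusted p under 0.05, 9 of the 10 differed, and DESeq2 also called 8 higher and 0 lower. The median log2 fold change was 1.21 over the 10 genes and 0.01 over all genes tested. The libraries of the 2 fractions did not overlap for 8 of the 10 genes, all with Paneth cells higher, where 27.6% of all genes tested showed that pattern.

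Pycr1 (GRCm39 chr11:120526484-120539269, minus strand) differed most. It stood at 56, 78.8 and 62.5 CPM in the 3 WT Paneth libraries and at 2.1, 1.8 and 1.5 CPM in the 3 WT non-Paneth libraries. The gene was low but detected in the WT non-Paneth fraction, at 28 to 33 counts per library. It was far higher in every WT Paneth library, a 36.6-fold difference (log2 fold change 5.19, SE 0.211, adjusted p = 2.34e-10). Pycr3, the cytosolic member of the family, stood at 74.4 and 72.8 CPM and was not called (log2 fold change 0.03, SE 0.108). Per kilobase of exon, WT Paneth cells held 13.3 CPM of Pycr1 and 23.9 of Pycr3, and WT non-Paneth cells held 0.362 and 23.4. Per kilobase of the longest transcript the WT Paneth levels were 21.9 and 24.7, so the distance between the genes there depends on the length used. On either scale Pycr1 was far under Pycr3 in the non-Paneth fraction.

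Aldh18a1 (chr19:40538698-40576949, minus strand) was at 228, 277 and 236 CPM in WT Paneth libraries and at 325, 270 and 286 CPM in WT non-Paneth libraries. The ranges overlapped and the difference was not called (log2 fold change -0.25, SE 0.121, adjusted p = 0.1). Without WT Paneth replicate 2 it was called lower (-0.34, adjusted p = 0.0468). Of the genes that take proline and ornithine apart, Aldh4a1, which oxidizes pyrroline-5-carboxylate to glutamate, was lower in Paneth cells by 3.01 on the log2 scale (log2 fold change -3.01, adjusted p = 4.33e-05), and Prodh, which starts proline breakdown, had a log2 fold change of -0.39 (adjusted p = 0.0288) with overlapping libraries. Arg2, the mitochondrial arginase, was lower (log2 fold change -4.2) and Arg1, the cytosolic one, higher (2.28). Over the 11 tested genes of the proline and ornithine list apart from the members, 2 were called higher and 5 lower, with a median of -0.25.

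All 3 genes of the serine route were higher in Paneth cells. Phgdh (chr3:98220484-98255047, minus strand), the first step, was at 44.3, 64.8 and 39.4 CPM in WT Paneth cells and at 17.2, 16.2 and 16.7 CPM in WT non-Paneth cells. Psat1 (chr19:15882039-15924701, minus strand), the second, was at 37.2, 90.4 and 58.2 CPM against 14.5, 14.7 and 16.3 CPM. Psph (chr5:129841925-129864513, minus strand), the last, was at 9.97, 18.9 and 11.2 CPM against 7.95, 6.39 and 8.01 CPM. Every Paneth library was above every non-Paneth library for all 3 genes, and the Paneth libraries were the more widely spread. The log2 fold changes were 1.56 for Phgdh (SE 0.183, adjusted p = 4.17e-06), 2.02 for Psat1 (SE 0.25, adjusted p = 1.78e-05) and 0.84 for Psph (SE 0.236, adjusted p = 0.008). The call for Psph rested on WT Paneth replicate 2, without which its adjusted p was 0.0698.

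The mitochondrial folate genes followed. Mthfd2 (chr6:83282673-83302890, minus strand) was at 48.2, 67.9 and 62.2 CPM in WT Paneth libraries and at 15.3, 14.6 and 18.3 CPM in WT non-Paneth libraries (log2 fold change 1.88, SE 0.14, adjusted p = 4.28e-08). Shmt2 (chr10:127352266-127358323, minus strand) was at 93.5, 89.3 and 82 CPM against 51.4, 52.9 and 59.6 CPM (log2 fold change 0.69, SE 0.11, adjusted p = 8.83e-05). Both were separated between the fractions in all libraries, Mthfd2 by the larger fold.

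Partner genes of the folate cycle were mixed. Mthfd1l, the mitochondrial formate-releasing enzyme, was higher by a log2 fold change of 0.82 (adjusted p = 5.41e-05), cytosolic Shmt1 by 0.33 (adjusted p = 0.0225), and the cytosolic trifunctional enzyme gene Mthfd1 was not called (0.02). Mthfd2l, the close relative of Mthfd2, stood at 4.61 and 3.81 CPM and was not called (0.28, SE 0.249). Aldh1l2 and Aldh1l1 encode the mitochondrial and cytosolic forms of one folate dehydrogenase, and they were called in opposite directions, Aldh1l1 lower by a log2 fold change of -2.31 (adjusted p = 2.12e-08) and Aldh1l2 higher. In WT Paneth cells Aldh1l2 ranged from 7.03 to 26.8 CPM and in WT non-Paneth cells from 0.0636 to 0.291 CPM, which is 1 to 5 counts and too few for a fold. Cbs, which uses serine to make cystathionine, was higher by 3.41, and Gnmt, a glycine methyltransferase, stood at 3.89 to 4.08 CPM where the WT non-Paneth libraries had at most 0.0534 CPM, again too few counts for a fold. Of the 20 tested genes of the serine, glycine and one-carbon list apart from the members, 9 were called higher and 6 lower.

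Asns (chr6:7671667-7728461, minus strand) was at 122, 215 and 173 CPM in WT Paneth libraries and at 31.2, 31.4 and 35.2 CPM in WT non-Paneth libraries. The lowest Paneth library was more than 3 times the highest non-Paneth one, and the log2 fold change was 2.38 (SE 0.172, adjusted p = 3.19e-08). Asnsd1, which carries an asparagine synthetase domain, was at 7.72 and 6.63 CPM and was not called (0.22, SE 0.198). Gpt2, the mitochondrial alanine aminotransferase gene, was higher (3.01) and Gpt, the cytosolic one, lower (-4.32), with adjusted p = 1.39e-07 and 9.79e-05. Among amino acid transporters 7 of 12 were called higher and 3 lower. Slc1a4, a carrier of serine, alanine and other neutral amino acids, was at 84.9 to 154 CPM in WT Paneth cells and 2.51 to 3.95 CPM in WT non-Paneth cells (log2 fold change 5.12), Slc43a1, a large neutral amino acid carrier, was higher by 5.41, and the brush border carriers Slc6a19 (-5.56) and Slc6a20a (-4.49) were lower.

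Atf4 (chr15:80139372-80141745, plus strand) was at 284, 292 and 225 CPM in WT Paneth libraries and at 163, 144 and 138 CPM in WT non-Paneth libraries. The groups did not overlap, and the log2 fold change was 0.85 (SE 0.128, adjusted p = 5.17e-05). Trib3 (chr2:152179337-152191958, minus strand) went the other way, at 2.37, 5.07 and 0.946 CPM against 6.74, 4.59 and 4.54 CPM. One Paneth library lay inside the non-Paneth range, and the difference was not called (log2 fold change -0.93, adjusted p = 0.0797). With libraries of the same number kept as a block, which the WT libraries allow, Trib3 was called lower (log2 fold change -1.04, adjusted p = 0.0207), and also without WT Paneth replicate 2 (-1.64, adjusted p = 0.00517).

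Other genes known to be induced by ATF4 or by stress were mixed. Of 15 tested, 7 were called higher in WT Paneth cells and 3 lower. Nupr1, a stress-induced nuclear protein gene, was at 294 to 426 CPM against 1.07 to 4.94 CPM (log2 fold change 6.96), Chac1, a glutathione-degrading enzyme gene, was higher by 4.07 and Vldlr, a lipoprotein receptor gene, by 4.02. Ddit3, which encodes the stress factor CHOP, was lower (-1.51, adjusted p = 0.000396), and Cebpb was not called (-0.56). Of the 20 cytosolic aminoacyl-tRNA synthetase genes, which charge tRNAs for protein synthesis, 14 were called higher and 1 lower, with a median of 0.41. Among genes for eIF2 alpha kinases and eIF2B, 4 of 11 were higher, Eif2ak4, which encodes the amino acid sensor GCN2, by 1.11, and 2 were lower, Eif2ak1 and Eif2ak2.

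**Figure D1:**
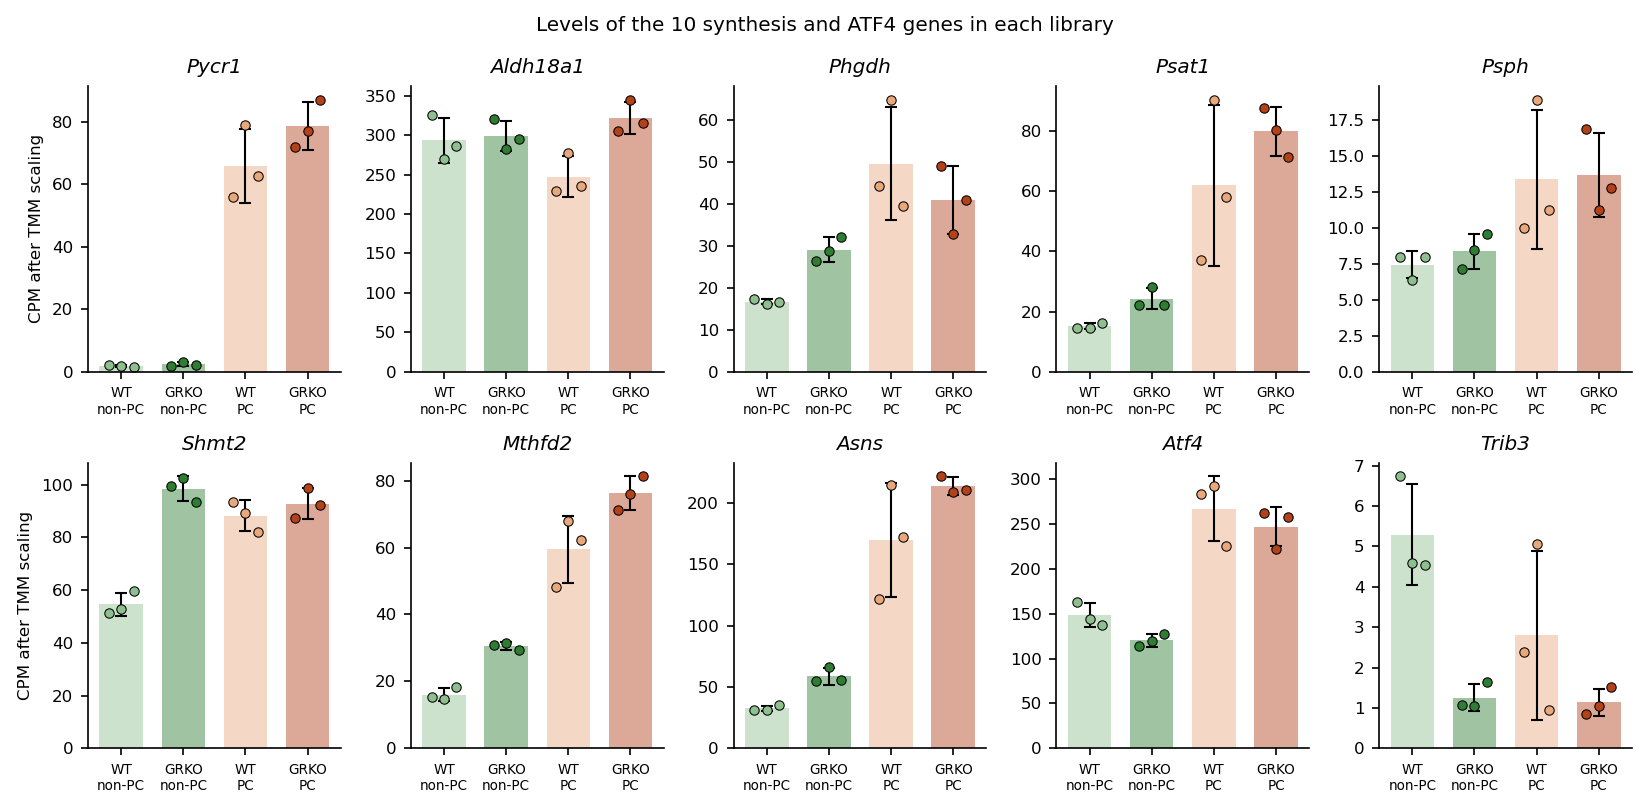
CPM after TMM scaling (vertical axes, linear, each panel with its own scale) of the 10 genes in 4 groups, with 1 point per library, bars at the group mean and error bars of 1 SD (n = 3). Pycr1 sits between 56 and 87 in all 6 Paneth libraries and at or below 3.14 in all 6 non-Paneth libraries.

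The element through which C/EBP-ATF dimers, ATF4 among them, act was looked for in the 300 bases from 250 before to 50 after each RefSeq start (GRCm38.p6 table), using its core TGATGNAA on both strands. It was present for 3 of the 10 genes, Asns, Pycr1 and Trib3, and for 4.51% of the 27025 genes with such a window. The 3 stretches printed are all the matches found among the 10 genes, and a link between the core and the levels of these genes was not tested. They lie inside the gene spans given above, because the RefSeq starts used are not the outer ends of those spans. Capitals mark the core, with 11 bases on either side, and each stretch is written 5′ to 3′ on the strand of its gene, with its place in GRCm39 found by exact match.
Pycr1, core from 103 bases before the start, stretch at chr11:120534659-120534688, minus strand: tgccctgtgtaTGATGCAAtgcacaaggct
Asns, core from 23 bases before the start, stretch at chr6:7693214-7693243, minus strand: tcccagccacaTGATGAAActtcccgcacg
Trib3, core from 15 bases after the start, stretch at chr2:152185948-152185977, minus strand, core on the opposite strand: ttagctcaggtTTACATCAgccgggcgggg
In the wider lists the core was present for 6 of 16 ATF4 target and stress genes, Chac1 and Nupr1 among them, for 2 of 9 transporters, Slc1a4 and Slc7a11, and for 0 of 15 serine, glycine and one-carbon genes with a window. A match describes the letters only, and its absence says that they are not in this window.

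The same comparison within GRKO mice gave 7 of the 10 genes higher in Paneth cells and 0 lower, where 18% of all genes tested were called higher and 21.2% lower. The median log2 fold change was 0.87 over the 10 genes and -0.08 over all. Pycr1 was at 71.8, 76.8 and 87 CPM in GRKO Paneth libraries and at 1.86, 3.14 and 2.24 CPM in GRKO non-Paneth libraries, a 32.3-fold difference (log2 fold change 5.01, SE 0.2, adjusted p = 1.25e-10). Asns was at 222, 209 and 211 CPM against 54.5, 66.7 and 55.3 CPM (log2 fold change 1.86, SE 0.167). Psat1 (1.72), Mthfd2 (1.32) and Atf4 (1.04) were also higher, each with all Paneth libraries above all non-Paneth libraries.

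Phgdh (0.49, adjusted p = 0.0396) and Psph (0.7, adjusted p = 0.0258) were called as well, but less securely. Both calls were lost without GRKO Paneth replicate 1 (adjusted p = 0.184 and 0.127) and without GRKO non-Paneth replicate 1 (0.066 and 0.0559), and that for Phgdh also without GRKO Paneth replicate 3 (0.0844). Shmt2, higher in Paneth cells of WT mice, was at 87.2, 99 and 92.2 CPM in GRKO Paneth libraries and at 99.5, 103 and 93.4 CPM in GRKO non-Paneth libraries, with overlapping ranges (log2 fold change -0.09, SE 0.109). Aldh18a1 (0.11) and Trib3 (-0.12, SE 0.489) were not called.

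The comparison of fractions rests on the scaling, because Paneth libraries had TMM factors of 0.656 to 0.826 and non-Paneth libraries of 1.2 to 1.5. With library totals alone, the median of all genes (log2 fold change) moved from 0.01 to -0.68 in WT, and the split of 3133 genes higher and 3491 lower became 1097 and 7892 (in GRKO, 2344 and 2773 became 816 and 9968). On that scale 5 members were called higher and 2 lower in WT, with Pycr1, Asns, Psat1, Phgdh and Mthfd2 still higher, Aldh18a1 (-0.96) and Trib3 (-1.66) lower, and Atf4, Psph and Shmt2 not called. In GRKO it gave 4 higher and 4 lower, with Phgdh at -0.5, Aldh18a1 at -0.86, Shmt2 at -1.05 and Trib3 at -1.08. Markers of other cells also differed between the fractions in the main fit. The marker calls that follow were made after TMM scaling and were not repeated with library totals. In Paneth cells tuft markers were higher in 4 of 4 genes in both genotypes, and stem markers in 4 of 4 in WT and 2 of 4 in GRKO. Enterocyte markers were lower in 6 of 6 genes in WT and 5 of 6 in GRKO, and enteroendocrine markers in 3 of 4 in both. Goblet markers were lower in 3 of 5 genes in WT, and in GRKO lower in 2 and higher in 1. Cycling markers were higher in 2 of 6 genes in WT and lower in 6 of 6 in GRKO. The part of these markers in the calls was not tested.

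Deletion of the receptor was then compared within each fraction. In Paneth cells, 0 of the 10 genes were called by edgeR, 3 had an unadjusted p under 0.05, and DESeq2 called 1, Aldh18a1. Of all genes tested, 1.7% were called higher and 1.52% lower. The median log2 fold change was 0.17 over the 10 genes and 0.03 over all genes. Aldh18a1 was at 305, 345 and 315 CPM in GRKO against 228, 277 and 236 CPM in WT (log2 fold change 0.38, SE 0.121, adjusted p = 0.077), and Mthfd2 at 71.3, 76.1 and 81.3 CPM against 48.2, 67.9 and 62.2 CPM (0.36, SE 0.134, adjusted p = 0.109). These were the 2 genes whose GRKO libraries all lay above the WT libraries, a pattern shown by 14.2% of all genes tested, and neither difference passed the test.

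For Asns (0.33, SE 0.163) and Psat1 (0.37, SE 0.237) WT replicate 2 lay inside or above the GRKO range. Pycr1 differed by 0.26 (SE 0.162), Atf4 by -0.11 (SE 0.127), Shmt2 by 0.07 (SE 0.11), Psph by 0.03 (SE 0.235) and Phgdh by -0.28 (SE 0.178). Trib3 had the largest difference and the widest error, with 0.846, 1.06 and 1.51 CPM in GRKO against 2.37, 5.07 and 0.946 CPM in WT (log2 fold change -1.26, SE 0.493, adjusted p = 0.124), and it was called lower without WT Paneth replicate 3 (-1.67, adjusted p = 0.0441). Of the 99 other pathway genes tested, 8 were called, all higher. They included Nars1, the asparaginyl-tRNA synthetase gene (0.51), Aars1 (0.69), Eprs1 (0.51) and Hars1 (0.46) of 20 synthetases, the transporters Slc38a1 (0.62) and Slc7a1 (0.65), the ER stress kinase gene Eif2ak3 (0.72) and Glyctk (0.92), and their adjusted p lay between 0.0409 and 0.0499. Calls in this comparison were fragile, since the 420 genes called over the whole table became 0 to 1618 when 1 library was left out, with WT Paneth replicate 3 the only library whose loss kept the count within 1.5 times of it.

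In non-Paneth cells, Phgdh, Psat1, Shmt2, Mthfd2 and Asns were higher in GRKO than in WT, Psat1 only just past the threshold, while Trib3 was lower. The calls were 5 higher and 1 lower of 10, where 17.5% of all genes tested were called higher and 19.8% lower, and the median log2 fold change was 0.56 over the 10 genes and 0.02 over all. Mthfd2 was at 30.7, 31.6 and 29.2 CPM in GRKO against 15.3, 14.6 and 18.3 CPM in WT (log2 fold change 0.92, SE 0.137, adjusted p = 0.000161). Shmt2 was at 99.5, 103 and 93.4 CPM against 51.4, 52.9 and 59.6 CPM (0.85, SE 0.109, adjusted p = 5.54e-05), and Phgdh at 26.5, 28.7 and 32.2 CPM against 17.2, 16.2 and 16.7 CPM (0.8, SE 0.179, adjusted p = 0.00298). All GRKO libraries lay above all WT libraries for each of these genes.

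Asns was at 54.5, 66.7 and 55.3 CPM in GRKO against 31.2, 31.4 and 35.2 CPM in WT (log2 fold change 0.85, SE 0.166, adjusted p = 0.00112). Psat1 was at 22.3, 28.3 and 22.1 CPM against 14.5, 14.7 and 16.3 CPM, also without overlap. Its call was close to the threshold (0.68, SE 0.244, adjusted p = 0.0446) and was lost under 12 of 23 alternatives, with adjusted p up to 0.166 without GRKO non-Paneth replicate 2 and above 0.05 without any 1 of the other GRKO libraries, WT Paneth replicate 3 or any 1 WT non-Paneth library. Pycr1 (0.44, SE 0.232, adjusted p = 0.152), Psph (0.17, SE 0.23) and Aldh18a1 (0.03, SE 0.121) were not called. The non-Paneth level of Pycr1 in GRKO, 2.42 ± 0.658 CPM (SD, n = 3), thus stayed far under that of either Paneth group.

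Trib3 was at 1.07, 1.05 and 1.64 CPM in GRKO and at 6.74, 4.59 and 4.54 CPM in WT. No library of one group reached the other, and the level was 4.19-fold lower (log2 fold change -2.07, SE 0.421, adjusted p = 0.00156). Atf4 itself was at 114, 119 and 128 CPM against 163, 144 and 138 CPM, again without overlap, but the difference was not called (-0.3, SE 0.127, adjusted p = 0.0748). Under 5 of the 23 alternatives, DESeq2 among them (-0.36, adjusted p = 0.0202), Atf4 was called lower. Libraries did not overlap for 5 genes with GRKO higher and 2 with GRKO lower, where 27.8% and 27.5% of all genes tested showed these patterns.

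Of the 15 tested genes of the ATF4 target and stress list, 5 were called lower in GRKO non-Paneth cells, 1 higher and 9 not at all, where 19.8% of all genes tested were called lower. Those lower were Atf3 (-2.91), Vegfa (-2.1), Ddit3 (-1.93), Jdp2 (-1.82) and Ppp1r15a (-1.31), which encode stress-response factors apart from Vegfa, a vascular growth factor, and Atf5 was higher (0.59). Ddit3 was at 2.54 to 3.77 CPM in GRKO and 9.56 to 17.5 CPM in WT. The aminoacyl-tRNA synthetase genes were called higher in 15 of 20 cases and lower in 0, with a median of 0.47. Neither list holds a member.

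Among genes of the folate cycle, Mthfd1l had a log2 fold change of 1 (adjusted p = 3.86e-05), Mthfd1 of 0.8 (adjusted p = 7.81e-05) and Shmt1 of 0.75 (adjusted p = 0.00016), and Tyms, the thymidylate synthase gene, of 0.43. Mthfd2l moved less, from a mean of 3.81 CPM in WT to 4.85 CPM in GRKO. Aldh1l1 (-1.14), Srr, the serine racemase gene (-1.12), and Glyctk, a glycerate kinase gene (-1.2), were lower. Of the serine, glycine and one-carbon list 6 of 20 genes were called higher and 4 lower. In the proline list Aldh4a1 was lower (-2.02, adjusted p = 0.000883), at 6.33 to 10.9 CPM in GRKO against 23.3 to 44 CPM in WT. Among transporters 5 of 12 were higher, including Slc7a5 (1.33), Slc1a4 (1.01) and Slc7a1 (0.87). Slc7a5 is the large neutral amino acid carrier that is also known as an ATF4 target. Slc3a2, the partner chain of Slc7a5, was lower (-0.85).

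Markers of cell state moved in the same libraries. The 6 cycling cell markers, Mki67, Top2a, Ccnb1, Pcna, Mcm2 and Mcm6, were called higher in GRKO non-Paneth cells in 6 of 6 cases and summed to 1380 to 1450 CPM, against 792 to 909 CPM in WT non-Paneth cells, 810 to 942 CPM in WT Paneth cells and 786 to 910 CPM in GRKO Paneth cells. The 6 enterocyte markers were Vil1, Alpi, Fabp1, Apoa1, Sis and Anpep. They summed to 3810 to 4770 CPM in GRKO against 17300 to 18900 CPM in WT non-Paneth cells, with 3 of 6 called lower. Vil1, 1 of these 3 (log2 fold change -1.5), encodes villin and so is not particular to enterocytes. Stem cell markers were higher in 3 of 4 cases, tuft markers in 4 of 4, and goblet markers lower in 2 of 5. The 4 tuft markers summed to 62.8 to 246 CPM in GRKO against 3.12 to 8.77 CPM in WT non-Paneth cells. With library totals alone the split of all genes, 2283 higher and 2586 lower, became 4348 and 1478, and 6 members were higher, Pycr1 (0.73) added, and 1 lower. The part of the marker shift in the 6 calls was not tested, and a different mix of cells and different expression within cells cannot be told apart.

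**Figure D2:**
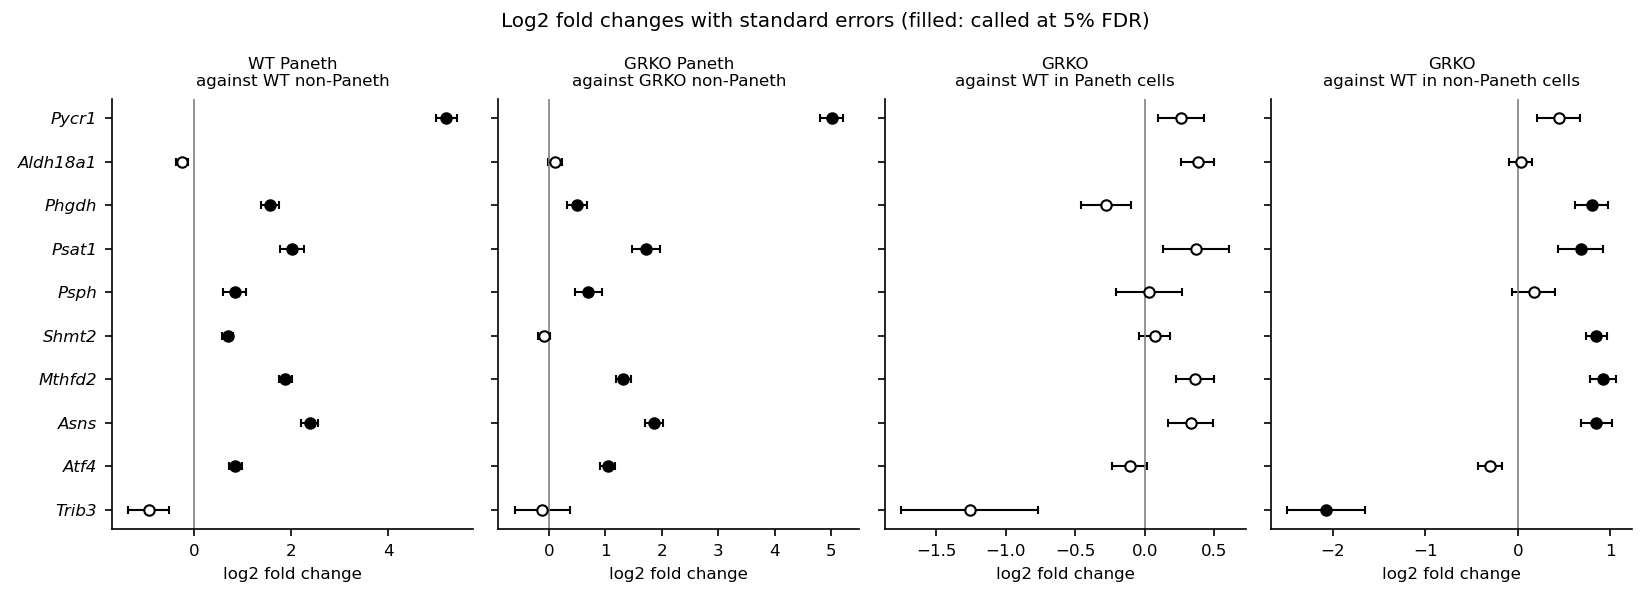
Log2 fold change (horizontal axes, each panel with its own scale) of the 10 genes in 4 comparisons, with error bars of 1 SE from edgeR and filled points for genes called at a 5% false discovery rate. In Paneth cells the GRKO and WT libraries gave 0 filled points, and in non-Paneth cells 5 to the right and 1, Trib3, to the left.

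Whether the effect of the deletion differed between fractions was tested by the interaction, in which a negative value means a smaller GRKO over WT ratio in Paneth than in non-Paneth cells. It was called for 2 of the 10 genes, both negative, where 11.5% of all genes tested were called positive and 7.28% negative. For Phgdh the GRKO over WT log2 fold change was -0.28 in Paneth and 0.8 in non-Paneth cells, a difference of -1.08 (SE 0.253, adjusted p = 0.00961). For Shmt2 it was 0.07 and 0.85, a difference of -0.78 (SE 0.155, adjusted p = 0.00379). After TMM scaling, Shmt2 thus had similar means in 3 groups, 88.3, 92.8 and 98.6 CPM. Its mean was lower in WT non-Paneth cells, at 54.7 CPM. With library totals alone GRKO non-Paneth cells stood apart instead, at 145.8 CPM. The means were then 66 CPM in WT Paneth, 66.2 CPM in WT non-Paneth and 70.2 CPM in GRKO Paneth cells.

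For Mthfd2 (-0.56, adjusted p = 0.0529) and Asns (-0.52, adjusted p = 0.131) the difference was not called. Both were called without WT Paneth replicate 1 (adjusted p = 0.0114 and 0.0123) and Mthfd2 without WT non-Paneth replicate 3 (adjusted p = 0.0292). Psat1 (-0.31, SE 0.339), Pycr1 (-0.18, SE 0.281) and Trib3 (0.81, SE 0.651) had wide errors and were not called. With library totals alone the split of all genes, 1496 positive and 950 negative, became 752 and 1836, and with GC and length trends removed 1527 and 1548, and each gave 4 members negative, Mthfd2 and Asns added. DESeq2 called 2 members negative and 1 positive, Aldh18a1 (0.41, adjusted p = 0.0421). In the serine, glycine and one-carbon list the interaction was called for 10 of 20 genes, 6 of them negative, Shmt1 (-0.94), Cbs (-0.91), Tyms (-0.82), Mthfd1l (-0.68), Mthfd1 (-0.66) and Gcsh (-0.5), and 4 positive, Glyctk (2.12), Srr (1.38), Aldh1l1 (1.23) and Sfxn1 (0.67). Of the other lists, Ddit3 (2.1) and Aldh4a1 (1.95) were positive. The WT non-Paneth libraries are shared by this comparison, the WT comparison of fractions and the comparison within non-Paneth cells, so these results are not separate observations.

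**Figure D3:**
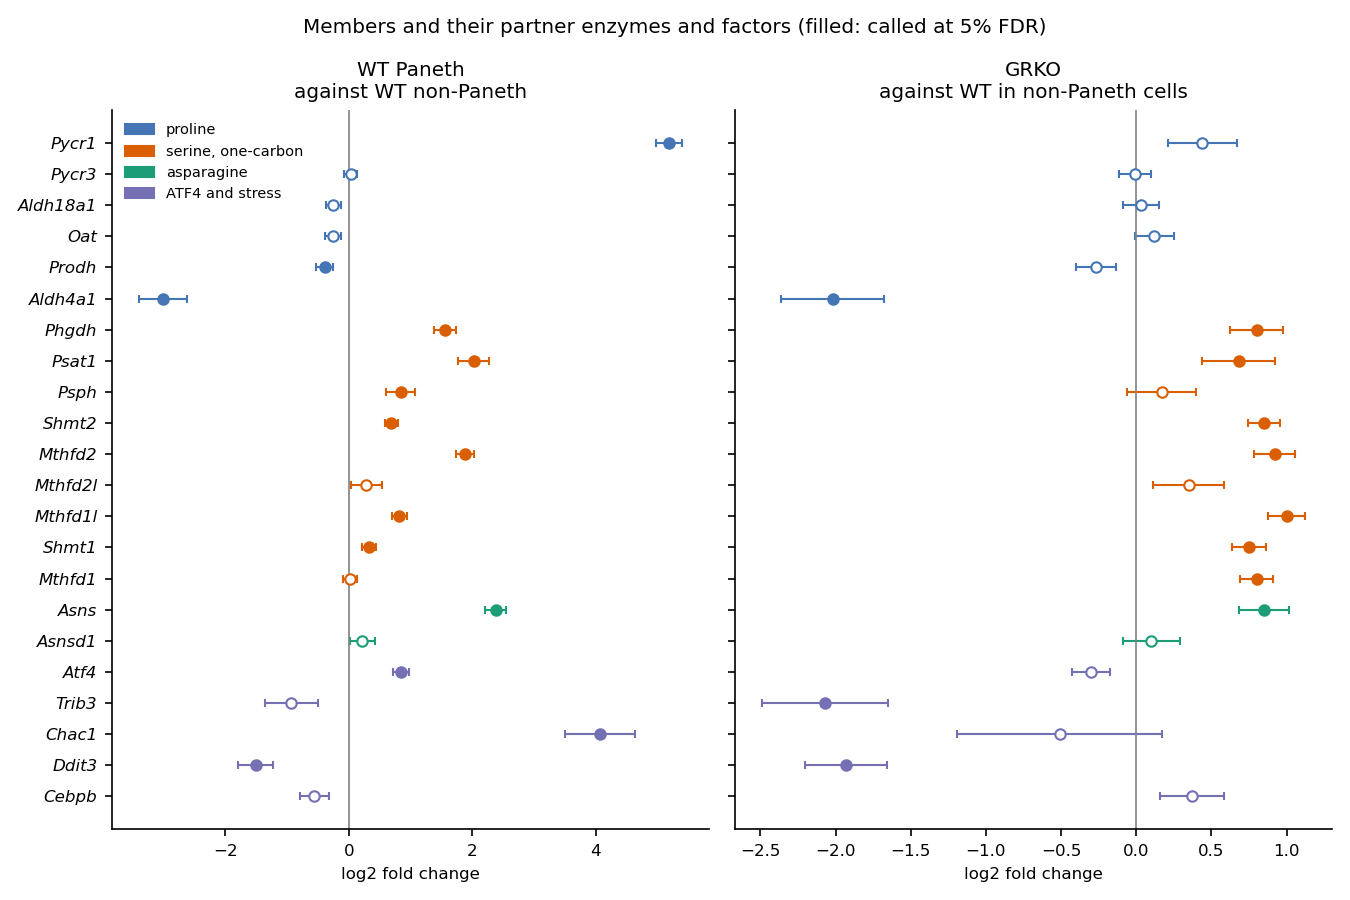
Log2 fold change with 1 SE (horizontal axes, each panel with its own scale) of members and of the genes whose enzyme or factor pairs with them, coloured by pathway and filled where called at a 5% false discovery rate. Pycr1 at 5.19 stands right of Pycr3 at 0.03 on the left, and the folate genes Shmt1, Shmt2, Mthfd1, Mthfd1l and Mthfd2 lie between 0.75 and 1 on the right. Mthfd2l, also drawn there, lies under this range, with means of 3.81 CPM in WT and 4.85 CPM in GRKO non-Paneth cells.

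Per kilobase of exon, the levels in WT Paneth cells ran from Atf4 (112.6 CPM per kilobase) and Aldh18a1 (47.5) through Shmt2 (21.5), Phgdh (17.5), Mthfd2 (16.2), Asns (14.5), Pycr1 (13.3) and Psat1 (10.5) to Psph (1.82) and Trib3 (0.826). Between Phgdh and Psat1 neighbours lay within 1 SD of each other, as the SDs of 2.37 to 4.77 over 3 libraries show. Per kilobase of the longest transcript the same genes lay between 21.8 for Psat1 and 27.2 for Mthfd2, with Shmt2 at 29.9. In WT non-Paneth cells Atf4 (62.5) and Aldh18a1 (56.4) again stood first, Shmt2 was at 13.3, and Pycr1, at 0.362, was last.

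Libraries of one group also differed among themselves. In WT Paneth cells replicate 2 had the highest level of the 3 libraries for 9 of the 10 genes, where it was highest for 38.1% of all genes tested, and the 10 genes summed to 1200 CPM there against 926 and 950 CPM. The pattern depends on that library's TMM factor of 0.656, the lowest of all. With library totals alone it was highest for 6 of the 10 genes and for 13.5% of all genes. The same library had the highest enterocyte marker sum of its group, 1650 CPM against 524 and 702 CPM, and it and WT non-Paneth replicate 2 were the 2 libraries with Xist RNA, at 193 and 214 CPM where the other 10 had at most 0.427 CPM. All GRKO libraries were among those 10, so the comparisons between genotypes are not balanced for Xist. The part of Xist and of the enterocyte markers in the member levels was not tested. In GRKO Paneth cells the highest library was replicate 1 for 5 genes, 2 for 2 and 3 for 3, and the sums of 1153 to 1175 CPM were close together.

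**Figure D4:**
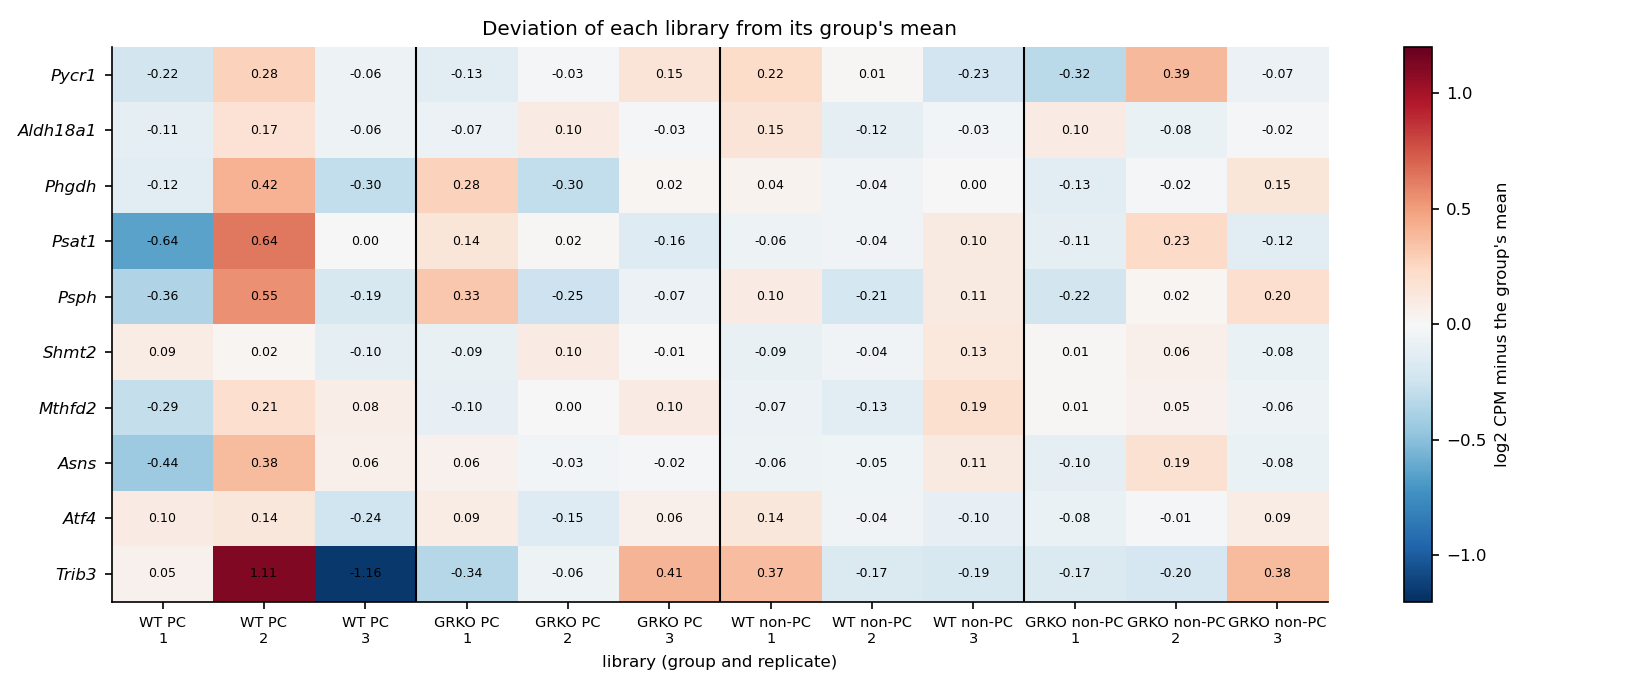
Deviation of each library from the mean of its group on the log2 CPM scale (colour and printed value) for the 10 genes and 12 libraries. WT Paneth replicate 2 is above its group's mean for all 10 genes, from 0.02 for Shmt2 to 1.11 for Trib3.

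The mean pattern of the members was compared with every gene tested by Pearson's r over the 12 libraries, as a description, since all genes share the same libraries, groups and scaling. The genes most alike were Bckdk (r = 0.978), Eif4ebp1 (0.977), Cyp20a1 (0.976), Inpp5f (0.973) and Ntmt1 (0.97). Of the members, Psat1 (0.974), Asns (0.97), Mthfd2 (0.952), Pycr1 (0.939), Psph (0.93), Phgdh (0.912) and Atf4 (0.851) followed the mean, while Shmt2 (0.604), Aldh18a1 (0.038) and Trib3 (-0.358) did so weakly or not at all. Each member is itself part of the mean, here and with group means removed, which raises its r. With group means removed, the nearest genes were Rdh14 (0.933), Eef1akmt4 (0.927), Gtdc1 (0.925), Eif4ebp1 (0.893) and Psenen (0.883), so Eif4ebp1 was in both sets of 5. Trib3, which left the others between groups, had r = 0.731 within groups, and Shmt2 had 0.085. The largest deviations of Trib3 from its group means were in WT Paneth replicates 2 and 3 (1.11 and -1.16).

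Some members overlap other genes on the opposite strand, namely Psph with Cct6a (465 shared exonic bases), Shmt2 with Ndufa4l2 (727), Asns with the noncoding 1700012J15Rik (391) and Aldh18a1 with a noncoding gene (914). The libraries keep the strand, but the sources used here do not say which strand was counted, so reads of such neighbours may not have been told apart.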

How the data were processed

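RNA of sorted Paneth and non-Paneth crypt cells was sequenced in 12 libraries, 3 in each of 4 groups. The labels name the Aurum kit for RNA extraction and the study's methods another kit. Per the labels and the methods, the authors trimmed reads with Trimmomatic 0.39, aligned single-end stranded reads to mm39 with STAR 2.7.10a and deposited its raw read counts per Ensembl gene. Deposited counts were not normalized.

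Here, symbols and lengths came from a GENCODE annotation of GRCm39, which named 98.8% of the 55414 genes, and for Ddit3, with 2 rows, the row with more counts was used. Genes were filtered with filterByExpr by group, scaled by TMM and fitted in 1 model of 4 group means with edgeR 4.0.16 (R 4.3.3, robust quasi-likelihood), with Benjamini-Hochberg adjustment over 13057 genes at 5%. The standard error is the log2 fold change divided by the root of the F statistic. The comparisons were between fractions within each genotype, between genotypes within each fraction, and their interaction. The fit was tested on simulated counts. Taken over all genes, libraries of a group differed by more than counting error. For members with few counts that error is not small beside the spread between libraries. Examples are Pycr1 in WT non-Paneth cells (28 to 33 counts) and Trib3 in GRKO Paneth cells (7 to 16 counts).

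The members and the pathway and marker lists were chosen with earlier results of these data known. The text names all members, the partner genes paired with them, at most 6 called genes per pathway list and comparison, by size of log2 fold change, whose libraries do not overlap, and the 5 genes most alike. A listed gene is not reported here. Alternatives were RLE or total-count scaling, scaling without Lyz1 and Defa genes, DESeq2 1.42.0, other filters, fewer groups, a replicate block, GC and length trends, 1% and leaving out each library.

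WT libraries of the same number deviated together between fractions (r = 0.349, 0.229 and 0.238), so the numbers pair them. GRKO libraries did not in every pair (0.0129, 0.262 and 0.465). No 2 libraries of a group agreed within sampling noise (chi-square per degree of freedom 12.4 to 48.1).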

Additional observations from a re-analysis of the deposited data

Results flagged for a closer look

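The effect of the deletion differed between the fractions, by the interaction term of the fit over all genes (edgeR, adjusted over all genes tested), for Phgdh (-1.08 on the log2 scale, Paneth minus non-Paneth, adjusted p = 0.00961) and for Shmt2 (-0.78, adjusted p = 0.00379). In non-Paneth cells both were higher in all 3 GRKO libraries than in all 3 WT libraries, and in Paneth cells the libraries overlapped. Marker sums of the same 3 GRKO non-Paneth libraries also differed from WT non-Paneth cells. Cycling markers were higher (1380 to 1450 against 792 to 909 CPM), as were tuft markers (62.8 to 246 against 3.12 to 8.77 CPM). Enterocyte markers were lower (3810 to 4770 against 17300 to 18900 CPM). The part of these shifts was not tested. Groups of 3 libraries were not searched for single outlying libraries.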

How the results depend on the processing

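Of 23 calls made on the members, 501 of 527 recomputed values kept their direction and their side of the threshold, 23 were no longer called and 3 changed direction. For the 27 differences not called, 546 of 613 were unchanged in this sense, 31 became calls and 36 changed sign. The cause of these changes was not tested. Library totals alone gave 10784 genes called between the GRKO fractions, 2 genes between genotypes in Paneth cells and 4 members for the interaction. With that scaling the log2 fold change of Shmt2 between WT fractions was 0 (just under it), those between GRKO fractions were -0.86 for Aldh18a1, -0.5 for Phgdh and -0.29 for Psph, and the interaction for Atf4 was -0.09.

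Between genotypes in Paneth cells, 420 genes and 0 members were called. The count was 1465 and 1 with DESeq2, 1780 and 1 with no filter, 0 genes with only the groups compared, 0 genes at 1%, and 815 and 1 with the replicate block and GC and length trends removed. Leaving out 1 library gave 0 to 1618 genes and 0 to 1 members. At 1% the counts were 3002 genes between genotypes in non-Paneth cells and 955 for the interaction, whose leave-one-out range was 1563 to 2607 genes and 2 to 4 members. With GC and length trends removed, with or without the block, the interaction was called for 4 members.

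Other differences changed sign as follows. Shmt2 between GRKO fractions was 0.02 with at least 10 counts in every library of 1 group and 0.01 with only the groups compared, and -0.14 to 0.05 over leave-one-out, where Trib3 ranged from -0.38 to 0.21. Between genotypes in Paneth cells, Psph was -0.01 under both of those settings, -0.04 with GC and length trends removed, with or without the block, and -0.15 to 0.36 over leave-one-out, and Atf4 was 0.02 with trends removed and 0.01 with the block added. In non-Paneth cells, Aldh18a1 was -0.03 with RLE factors, DESeq2 and the stricter filter, and -0.08 to 0.05 over leave-one-out. The interaction ranged from -0.33 to 0.08 for Pycr1, -0.57 to 0.07 for Psat1 and -0.32 to 0.19 for Psph.

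With the replicate number as a block, 977 genes were called between genotypes in Paneth cells, Trib3 was called lower between WT fractions and Mthfd2 for the interaction (-0.56, adjusted p = 0.0448 by edgeR), and no other call on a member changed. Numbers do not pair WT with GRKO libraries, so these counts describe the fit only. Levels per kilobase moved by more than the spread between libraries in 37 of 40 cases when the longest transcript replaced all exons. Trib3 had as few as 7 counts in a library and Pycr1 as few as 28, which limits the precision of their lowest levels.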
